A study of Rattus norvegicus with 8 samples.

Results

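The genes described here were 8 genes of cholesterol synthesis and its regulation, out of 22601 genes measured in rat hippocampal RNA. They were found by their NCBI GeneID, and the set was chosen by the FPKM values of these same libraries, in which most of them were higher after pentylenetetrazol (PTZ) and lower again after Q808. The differences between groups are therefore given for these 8 genes as a description: no p-value is printed for them, and counts of how many passed a criterion stand beside the share of all genes that did and support nothing. The set held 5 enzymes of the route to cholesterol (Hmgcs1, Mvd, Idi1, Sqle and Cyp51), the transcription factor gene Srebf2, its regulator Insig1, and Tmem97, which encodes a sterol-responsive membrane protein. All 8 passed the filter on low values, a mean of at least 0.1 FPKM over the 8 libraries.

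Cells make cholesterol from acetyl-CoA through mevalonate, isoprenoids, squalene and lanosterol. When sterols in the endoplasmic reticulum are low, the SCAP protein escorts SREBP2, the product of Srebf2, to the Golgi, where proteases free its transcription factor part, and this part then raises transcription of the enzymes of the route. INSIG1 holds SCAP back when sterols are plentiful and is itself encoded by an SREBP target. The brain makes its own cholesterol, since the blood supplies little, and most of it lies in myelin, so oligodendrocytes are large producers, while astrocytes pass cholesterol to neurons on apolipoprotein E.

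Libraries came from wild type Wistar rats that weighed 180 to 220 g at purchase, with 1 library per rat. The Con. group (3 libraries) received vehicle. The PTZ group (3 libraries) was kindled with PTZ, a blocker of the GABA-A receptor, at 35 mg/kg every 48 h for 28 days (14 injections, the last day at 60 mg/kg), and then received solvent for 28 days. The Q808 group (2 libraries) was kindled in the same way and then received Q808, a tetrazolophthalazine compound tested against convulsions, at 30 mg/kg by gavage for 28 days. Rats of the PTZ and Q808 groups were given PTZ once more at a dose below the seizure threshold on the day after the last dose. Seizures were then scored, and the hippocampus was taken after that. PTZ against Con. therefore holds kindling and this recent dose together, and the Q808 group differed from Con. in PTZ as well as in Q808. The paper reports lower seizure scores with Q808, so in Q808 against PTZ the drug and recent seizures cannot be told apart. Values are FPKM (fragments per kilobase of transcript scaled to the number of mapped fragments) as deposited, and log2 differences were computed on log2(FPKM + 0.1).

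The tissue of the libraries was uneven, and this bears on each comparison below. The 8 marker genes of striatal projection neurons, neurons outside the hippocampus, averaged 1.78 to 2.58 on the log2 scale in 5 libraries but 5.98 to 7.31 in Con.-3, PTZ-3 and Q808-1, which are called striatum-rich here, the others striatum-poor. In the striatum-rich libraries the markers of dentate granule cells, which are hippocampal, averaged 1.60 to 1.65 against 2.81 to 3.24 in the striatum-poor ones, and the markers of mature oligodendrocytes averaged 8.26 to 8.97 against 6.89 to 7.56. The pyramidal neuron markers Fibcd1, Spink8 and Iyd were at or near 0 in all 8 libraries, while Neurod6 ranged from 60.8 to 130.0 FPKM in the striatum-poor libraries and from 7.29 to 24.7 FPKM in the striatum-rich ones. Markers of the choroid plexus averaged 4.32 and 4.49 in Con.-1 and Con.-2, 0.67 in Con.-3, 1.61 to 2.88 in the PTZ libraries, 1.41 in Q808-1 and 6.02 in Q808-2. In such bulk RNA fewer cells of a type and less RNA per cell cannot be told apart. Sequencing depth relative to Con.-1 lay between 0.854 (PTZ-3) and 1.188 (Con.-2), and the absolute depth is not known from FPKM.

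Promoter sequences were available for 7 of the 8 genes, Sqle being the exception, as windows of 250 bases before to 50 bases after the transcription start in RefSeq on GRCr8, which may not be the build behind the FPKM. They are shown because SREBP2 acts through sterol regulatory elements in such windows, commonly beside a CCAAT box, the site of the factor NF-Y. Printed here are the 250 bases before the start, all on the minus strand and read 5′ to 3′, of the genes with a single RefSeq transcript among the 4 that differed by more than 1.5-fold between the PTZ and Con. groups. Capitals mark CCAAT on either strand (CCAAT or ATTGG). The regions are chr19:67414975-67415224 for Mvd, chr17:66547525-66547774 for Idi1 and chr10:63945360-63945609 for Tmem97.
Mvd: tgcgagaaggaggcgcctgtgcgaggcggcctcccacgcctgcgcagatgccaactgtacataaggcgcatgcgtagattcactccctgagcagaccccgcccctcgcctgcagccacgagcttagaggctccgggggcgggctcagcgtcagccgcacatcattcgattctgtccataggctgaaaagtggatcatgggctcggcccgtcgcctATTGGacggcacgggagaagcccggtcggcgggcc
Idi1: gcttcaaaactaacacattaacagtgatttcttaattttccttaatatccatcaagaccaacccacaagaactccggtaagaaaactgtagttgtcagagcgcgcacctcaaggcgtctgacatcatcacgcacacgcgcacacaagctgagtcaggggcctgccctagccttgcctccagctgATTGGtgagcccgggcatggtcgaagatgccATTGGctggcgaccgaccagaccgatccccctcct
Tmem97: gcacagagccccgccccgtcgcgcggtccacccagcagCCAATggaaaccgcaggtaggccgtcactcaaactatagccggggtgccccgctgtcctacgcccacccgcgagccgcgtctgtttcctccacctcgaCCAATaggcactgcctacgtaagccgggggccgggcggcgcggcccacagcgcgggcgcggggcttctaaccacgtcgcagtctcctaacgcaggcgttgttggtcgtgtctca
Before the start, Idi1 held ATTGG with its first base at positions -66 and -35, Mvd held it at -35, and Tmem97 held CCAAT at -212 and -114. Mvd also held CCAAT with its first base at -2. It runs across the start, so the printed stretch ends inside it and leaves it unmarked.

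CCAAT on either strand lay in 6 of the 7 windows (all but Cyp51) and in 37.5% of all 33469 promoter windows of the same length, so its presence alone is common. The sterol regulatory element spelled TCACNCCAC was in none of the 7 windows and in 1.12% of all windows, and the shorter CACNCCAC, which is contained in it, was in the Insig1 window alone and in 5.80% of all windows. Srebf2 held TCACCCCA, a spelling looked for after its window had been read and present in 1.37% of all windows, at position -156, and it is shown with the CCAAT box that follows it, at chr7:115543151-115543182 on the plus strand, with both in capitals.
Srebf2: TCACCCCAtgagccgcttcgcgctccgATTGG
These matches describe letters only, and no binding was measured.

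Hmgcs1 (GeneID 29637), the cytosolic HMG-CoA synthase of an early step of the route, was the most abundant of the 8 genes per unit length. Its level was 94.0, 95.0 and 82.7 FPKM in the Con. libraries, 121, 132 and 146 FPKM in the PTZ libraries, and 116 and 95.9 FPKM in the Q808 libraries. All PTZ libraries lay above all libraries of the other groups, and both Q808 libraries lay above Con., Q808-2 by very little. The log2 difference of PTZ from Con. was 0.55 (SE 0.13), or 1.47-fold, and that of Q808 from PTZ was -0.33 (SE 0.18).

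Mvd (GeneID 81726) encodes mevalonate diphosphate decarboxylase, which makes isopentenyl diphosphate. Its level was 15.3, 15.2 and 11.0 FPKM in the Con. libraries, 20.8, 27.5 and 18.1 FPKM in the PTZ libraries, and 10.9 and 14.3 FPKM in the Q808 libraries. Every PTZ library was above every library of the other 2 groups, and the Q808 values lay within or just below the Con. range, with the striatum-rich library the lowest of each group. The log2 difference was 0.67 (SE 0.21) for PTZ from Con. and -0.80 (SE 0.24) for Q808 from PTZ, and no other of the 8 genes was lower by as much after Q808.

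Idi1 (GeneID 89784) encodes the isomerase that turns isopentenyl diphosphate into dimethylallyl diphosphate. It measured 14.9, 12.9 and 9.22 FPKM in the Con. libraries, 16.0, 24.5 and 20.0 FPKM in the PTZ libraries, and 13.1 and 14.3 FPKM in the Q808 libraries. The PTZ libraries did not overlap with the others, but PTZ-1 exceeded Con.-1 by little, and the Q808 libraries fell inside the Con. range. The log2 difference was 0.71 (SE 0.23) for PTZ from Con. and -0.54 (SE 0.23) for Q808 from PTZ.

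Sqle (GeneID 29230) encodes squalene epoxidase, the first oxygen-dependent step of sterol synthesis. It measured 34.1, 33.0 and 24.8 FPKM in the Con. libraries, 35.1, 45.2 and 35.3 FPKM in the PTZ libraries, and 30 and 36.6 FPKM in the Q808 libraries. PTZ-2 stood above the rest, PTZ-1 and PTZ-3 were close to Con.-1, and Q808-2 lay inside the PTZ range. The log2 difference was 0.33 (SE 0.18) for PTZ from Con. and -0.21 (SE 0.20) for Q808 from PTZ.

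Cyp51 (GeneID 25427), the lanosterol 14-alpha-demethylase, measured 69.1, 63.3 and 59.2 FPKM in the Con. libraries, 74.9, 75.3 and 90.4 FPKM in the PTZ libraries, and 92.0 and 62.1 FPKM in the Q808 libraries. PTZ was above Con. in every library, but the 2 Q808 libraries lay at opposite ends: Q808-1 had the highest value of all 8 libraries and Q808-2 the second lowest. The log2 difference was 0.32 (SE 0.13) for PTZ from Con. and -0.08 (SE 0.22) for Q808 from PTZ. Within the striatum-poor libraries Q808 was lower than PTZ by -0.27 on the log2 scale, and between the striatum-rich libraries it differed by 0.03. Q808-1 also had the highest oligodendrocyte marker level of all libraries, 8.97 on the log2 scale; whether the Cyp51 value goes with it was not tested.

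Insig1 (GeneID 64194) encodes the sterol-dependent retention factor of SCAP. It measured 25.3, 26.3 and 28 FPKM in the Con. libraries, 39.0, 67.9 and 48 FPKM in the PTZ libraries, and 38.7 and 30.2 FPKM in the Q808 libraries. The Con. libraries were tightly grouped and the PTZ libraries were spread, and the 3 groups did not overlap, with Q808-1 just under PTZ-1. The log2 difference of PTZ from Con., 0.92 (SE 0.21) or 1.90-fold, was the largest of the 8 genes, and that of Q808 from PTZ was -0.55 (SE 0.27).

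Srebf2 (GeneID 300095) encodes SREBP2 itself. It measured 40.4, 41.6 and 35.2 FPKM in the Con. libraries, 45.3, 48.8 and 36.7 FPKM in the PTZ libraries, and 32.6 and 44.7 FPKM in the Q808 libraries. The 3 groups overlapped, and in each group the striatum-rich library was the lowest. The log2 difference was 0.15 (SE 0.15) for PTZ from Con., the smallest of the 8 genes, and -0.18 (SE 0.22) for Q808 from PTZ. Between libraries of the same striatal content, PTZ and Con. differed by 0.20 (striatum-poor) and 0.06 (striatum-rich).

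Tmem97 (GeneID 303330) encodes the sigma-2 receptor, a protein of the endoplasmic reticulum that binds the cholesterol transporter NPC1. It measured 9.67, 11.7 and 9.47 FPKM in the Con. libraries, 17.7, 17.3 and 17.6 FPKM in the PTZ libraries, and 10.7 and 11.5 FPKM in the Q808 libraries. The PTZ libraries formed a narrow band well above all others, and the Q808 libraries lay inside the Con. range. The log2 difference was 0.77 (SE 0.14) for PTZ from Con. and -0.66 (SE 0.17) for Q808 from PTZ, and its pooled spread within groups, 0.11 on the log2 scale, was the smallest of the 8 genes, against 0.14 to 0.30 for the others.

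**Figure D1:**
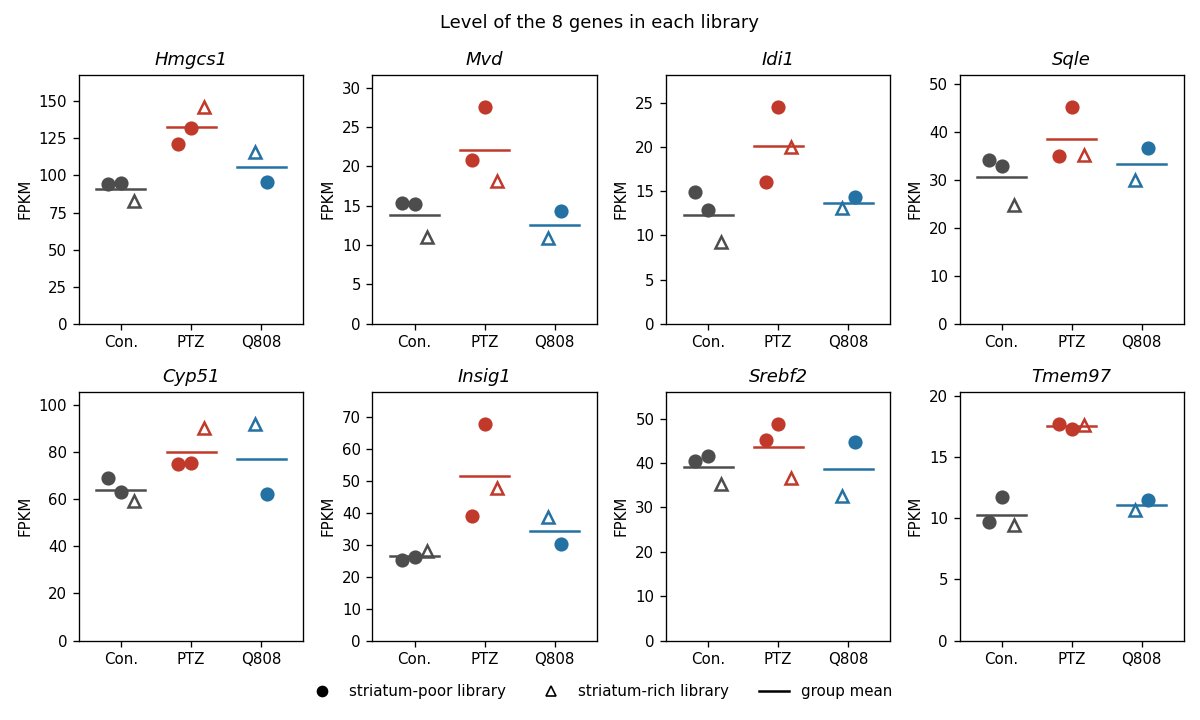
Level in FPKM (vertical axis, starting at 0) of the 8 genes in each library, by group; filled circles are striatum-poor libraries, open triangles striatum-rich ones, and lines are group means. For Tmem97 the PTZ libraries sit between 17.3 and 17.7 FPKM and all others at 11.7 FPKM or lower, whereas for Srebf2 the groups overlap.

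In the PTZ group, 7 of the 8 genes lay above Con. in every library, Srebf2 being the exception, where 4.11% of the 15593 genes tested did so. Called here means a limma p below 0.05, unadjusted, with more than 1.5-fold difference, as the study's own criterion. By it 4 of the 8 genes (Mvd, Idi1, Insig1 and Tmem97) were called higher and none lower in PTZ against Con., where 1.69% of all genes tested were called higher and 2.53% were called in either direction. The median log2 difference was 0.61 over the 8 genes and -0.041 over all genes. Without Con.-3 the called genes were 2 of the 8, where 639 of the 15593 genes tested were called. Without PTZ-2 they were also 2 of the 8, where fewer of all genes were called than the 395 with all libraries. Without all striatum-rich libraries they were 3 of the 8, where 1530 of all genes were called. Since these values chose the genes, nothing is read from the counts.

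In the Q808 group, 5 of the 8 genes (Hmgcs1, Mvd, Idi1, Insig1 and Tmem97) lay below PTZ in every library, where 5.02% of all genes did so, and Sqle, Cyp51 and Srebf2 overlapped. Mvd and Tmem97, 2 of the 8, were called lower in Q808 against PTZ, where 0.564% of all genes were called lower and 1.92% were called in either direction. The median log2 difference was -0.43 over the 8 genes and 0.097 over all genes. Without PTZ-1 the called genes were 4 of the 8, where 132 of the 15593 genes tested were called. Without Q808-1, which left 1 Q808 library, the mean log2 difference of the 8 genes was -0.41, against -0.42 with it. Both comparisons share the PTZ libraries, so high values there raise the first and lower the second.

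Against Con., the Q808 libraries differed little in these genes: the log2 differences ran from -0.13 (Mvd) to 0.37 (Insig1), with a median of 0.15 against 0.045 over all genes. None of the 8 was called, where 3.46% of all genes were. The difference was above 0 in 6 of the 8, and in 8618 of the 15593 genes tested. With 2 Q808 rats, standard errors of 0.16 to 0.24 leave differences of this size unresolved. Under quantile normalization the calls over all genes in this comparison went from 479 higher and 61 lower to 283 higher and 158 lower.

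Averaged over the 8 genes, the log2 level was 4.86, 4.86 and 4.60 in the Con. libraries, 5.20, 5.50 and 5.29 in the PTZ libraries, and 4.90 and 4.92 in the Q808 libraries. The PTZ libraries were the 3 highest, PTZ-2 above the others, and Con.-3 was the lowest. The pooled spread of this average within groups was 0.137 (SD). All 8 differences of PTZ from Con. were above 0 as deposited and under quantile normalization and median ratio scaling as well.

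The 5 striatum-poor libraries were Con.-1, Con.-2, PTZ-1, PTZ-2 and Q808-2. Within them the log2 difference of PTZ from Con. was above 0 in all 8 genes and in 5547 of the 15593 genes tested. Over the 8 genes it ran from 0.18 (Cyp51) to 1.00 (Insig1). The median was 0.47, against -0.111 over all genes. Mvd, Insig1 and Tmem97 were called higher, 3 of the 8, where 4.09% of all genes were called higher and 9.82% in either direction. Q808-2 was below PTZ-1 and PTZ-2 in 7 of the 8 genes, Sqle being the exception, with a median of -0.44 against 0.157 over all genes, and the same 3 genes were called lower, where 2.31% of all genes were called lower and 10.4% in either direction. Without PTZ-2 the mean log2 difference of the 8 genes went from 0.49 to 0.34 in PTZ against Con. It went from -0.43 to -0.28 in Q808 against PTZ. Here the Q808 group is 1 library, assumed to vary like the other groups. The share of all genes in which Q808-2 lay below both PTZ libraries was not computed. The 7 of 8 genes therefore cannot be judged against it.

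These striatum-poor comparisons depend on scaling over all genes. Median ratio scaling moved the median of all genes in PTZ against Con. from -0.111 to 0.0053, and the calls from 637 higher and 895 lower to 852 higher and 572 lower. In Q808 against PTZ the median went from 0.157 to -0.014 and the calls from 1265 higher and 360 lower to 785 higher and 562 lower, while quantile normalization gave 581 higher and 651 lower. All 8 genes were above 0 in PTZ against Con. and below 0 in Q808 against PTZ under each of the 3 scalings, with medians of 0.47 to 0.59 and of -0.61 to -0.44.

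The striatum-rich libraries were 1 per group and so without a replicate check, and no value over all genes was computed for these pairs. The log2 difference of PTZ-3 from Con.-3 ran from 0.06 (Srebf2) to 1.11 (Idi1) over the 8 genes. That of Q808-1 from PTZ-3 ran from -0.72 (Mvd) to 0.03 (Cyp51). The enzymes Hmgcs1, Sqle, Idi1 and Cyp51 differed more from Con. in the striatum-rich pair, at 0.82, 0.51, 1.11 and 0.61, than in the striatum-poor libraries, at 0.42, 0.25, 0.51 and 0.18, whereas Insig1 differed less, 0.78 against 1.00. Whether these differences differ between the sets was not tested. Mvd and Srebf2 were lower in the striatum-rich library of every group, by a mean of -0.41 and -0.34 on the log2 scale, and Sqle by -0.30.

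The 8 genes varied together across libraries. Of their 28 pairs, 27 had a Pearson correlation above 0 over the 8 libraries, with a median of 0.68 and a range of -0.33 to 0.92. After each set of striatal content was centred on its own mean, all 28 were above 0, with a median of 0.81 and a range of 0.12 to 0.97. The points share libraries and the group differences that chose the genes, so these values are a description.

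**Figure D2:**
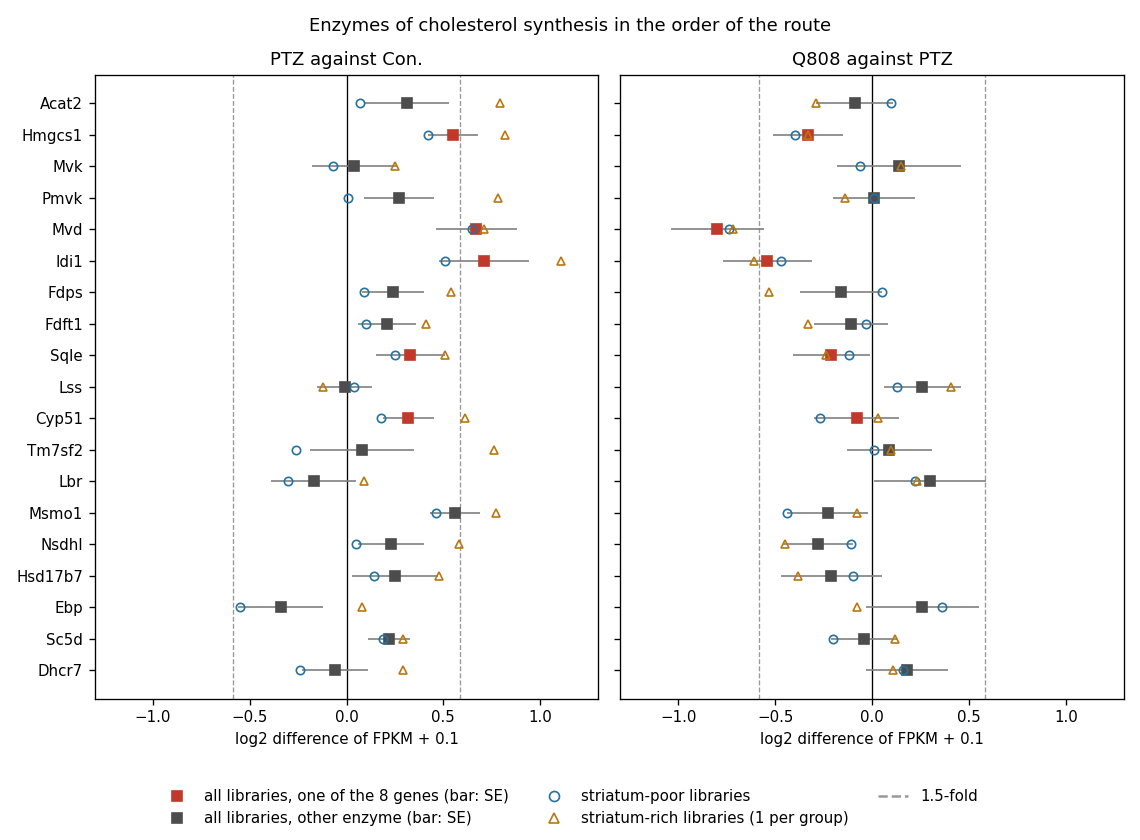
Log2 difference of FPKM + 0.1 (horizontal axis) for enzymes of cholesterol synthesis from top to bottom of the route, PTZ against Con. on the left and Q808 against PTZ on the right. Squares are all libraries with SE bars (red, the 5 enzymes chosen; grey, the other 14), circles the striatum-poor and triangles the striatum-rich libraries; Msmo1 reaches 0.56 on the left while Ebp lies at -0.34.

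The rest of the route was uneven. Of 14 other synthesis enzymes, 10 had a log2 difference above 0 in PTZ against Con., with a median of 0.21 and a range of -0.34 (Ebp) to 0.56 (Msmo1), beside a median of 0.61 for the 8 genes. None of the 14 was called by limma, over all libraries or the striatum-poor ones, and 1 of them (Msmo1) had an unadjusted p below 0.05 over all libraries and 2 (Msmo1 higher and Ebp lower) over the striatum-poor ones, where 3.78% and 19.6% of all genes tested had one. Of Q808 against PTZ none of the 14 was called either, with 7 below 0, 7 above 0 and a median of -0.01, and 0 had an unadjusted p below 0.05 over all libraries and 1 (Msmo1) over the striatum-poor ones, where 2.19% and 15.2% of all genes had one.

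Msmo1, the C4-methylsterol oxidase that acts after Cyp51, was higher in every PTZ library (102, 118 and 120 FPKM) than in every Con. library (82.0, 77.6 and 70.3 FPKM), while its Q808 libraries were apart, at 114 and 80.9 FPKM. Its log2 difference of 0.56 (SE 0.13, limma unadjusted p = 0.00286, adjusted p = 0.999) was 1.47-fold and so under the limit, as that of Hmgcs1 was. Msmo1 was also in the list of changed genes that the study drew from these same libraries, so its difference is not independent evidence. Q808-1 was high and Q808-2 near Con., the same order as in Cyp51, and within the striatum-poor libraries Msmo1 differed by -0.44 in Q808 against PTZ (SE 0.13, limma unadjusted p = 0.015, adjusted p = 0.249). The abundant enzymes Fdps, farnesyl diphosphate synthase, and Pmvk, phosphomevalonate kinase, overlapped between groups, with log2 differences of 0.24 (SE 0.16) and 0.27 (SE 0.18) in PTZ against Con., and these came from the striatum-rich pair (0.54 and 0.78) more than from the striatum-poor libraries (0.09 and 0.01). Sc5d, the sterol-C5-desaturase of a late step, lay above Con. in every PTZ library by a small margin, 35.8, 39.0 and 37.6 FPKM against 33.6, 31.9 and 30.8 FPKM, with a log2 difference of 0.22 (SE 0.11, limma unadjusted p = 0.0808, adjusted p = 0.999).

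None of the 5 genes of SREBP processing was called in PTZ against Con., over all libraries or over the striatum-poor ones, and over all libraries the log2 differences of all 5 were below 0, with a median of -0.18. Mbtps2, the site-2 protease that completes the release of SREBP from the membrane, named after its values were seen, measured 5.98, 4.96 and 5.13 FPKM in the PTZ libraries against 8.53, 7.57 and 7.36 FPKM in the Con. libraries. The difference was -0.54 (SE 0.17, limma unadjusted p = 0.0147, adjusted p = 0.999), or 0.688 of the Con. level. Mbtps1, the site-1 protease, and the SREBP escort Scap overlapped over all libraries, with log2 differences of -0.32 (SE 0.20) and -0.12 (SE 0.14). Within the striatum-poor libraries Mbtps1 did not overlap and differed by -0.40 in PTZ against Con. (SE 0.11, limma unadjusted p = 0.013, adjusted p = 0.172) and by 0.41 in Q808 against PTZ (SE 0.14, limma unadjusted p = 0.0283, adjusted p = 0.292), both under 1.5-fold. Insig2, the second INSIG protein, differed by -0.18 (SE 0.13), beside 0.92 for Insig1.

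Srebf1, which encodes SREBP1, the factor of fatty acid synthesis, rose in Q808 against PTZ by 0.59 on the log2 scale (SE 0.23, limma unadjusted p = 0.0388, adjusted p = 0.952, from 0.385 to 1.0 over 17 alternatives), and was called in 9 of those 17. Without PTZ-1, PTZ-2 or Q808-1 the call was lost, with differences of 0.64, 0.44 and 0.41. It measured 19.2, 14.7 and 21.0 FPKM in the PTZ libraries and 31.2 and 24.0 FPKM in the Q808 libraries, against 16.4, 16.6 and 25.7 FPKM in Con. The striatum-rich library was the highest in each group. Its paralogue Srebf2 was lower in Q808 than in PTZ by -0.18 on the same scale.

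Among 5 genes of sterol uptake and trafficking, none was called in PTZ against Con., with all 5 log2 differences above 0 and a median of 0.18. Npc2, which carries cholesterol inside lysosomes, rose in Q808 against Con. by 0.69 on the log2 scale (SE 0.26, limma unadjusted p = 0.0396, adjusted p = 0.901, from 0.359 to 1.0 over 17 alternatives), with 139 FPKM in Q808-1 and 82.0 FPKM in Q808-2 against 58.4 to 71.8 FPKM in Con. Npc2 was called in 9 of those 17. The call was lost without Q808-1, with a difference of 0.31, and without any 1 of the Con. libraries, with differences of 0.60 to 0.75. It was also lost with the oligodendrocyte covariate, with 0.46, and without the 3 striatum-rich libraries, with 0.38. In limma without trend or with all genes that had any value above 0 it was lost at an unchanged 0.69. In the same comparison all 6 microglia markers (median 0.74, Aif1 called) and all 5 endothelial markers (median 0.72, Cldn5 and Tek called) were above 0. So were all 4 oligodendrocyte precursor markers (median 0.66, Pdgfra and Cspg4 called) and all 10 mature oligodendrocyte markers (median 0.48, none called). Each of these lists was highest in Q808-1, as Npc2 was. All 6 choroid plexus markers were above 0 too (median 0.65). In the pan-neuronal, dentate granule cell and pyramidal neuron lists, 4 of 5 tested markers each were below 0. The part of these cell types in the rise of Npc2 was not tested. Stard4, a cytosolic sterol carrier, rose in the striatum-poor libraries of PTZ against Con. by 0.82 (SE 0.31, limma unadjusted p = 0.039, adjusted p = 0.233, from 0.0987 to 0.654 over 13 alternatives). It was called in 8 of those 13. The call was lost without Con.-1, Con.-2 or PTZ-2, with differences of 0.65, 0.98 and 0.42. Without trend or with all genes that had any value above 0 it was lost at an unchanged 0.82. Between the striatum-rich libraries Stard4 differed by -0.70, with 8.67 FPKM in Con.-3 against 5.30 FPKM in PTZ-3. Vldlr, a lipoprotein receptor, and Npc1, the lysosomal partner of Npc2, differed by 0.26 (SE 0.17) and 0.08 (SE 0.26) over all libraries. For Vldlr the sets were of opposite sign, 0.49 (SE 0.10, limma unadjusted p = 0.00399, adjusted p = 0.118) in the striatum-poor libraries without overlap and -0.21 in the striatum-rich pair, and in Q808 against PTZ it differed by -0.39 (SE 0.13, limma unadjusted p = 0.0248, adjusted p = 0.282) in the striatum-poor libraries and 0.01 in the pair.

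None of the 10 genes of cholesterol efflux and turnover was called in the comparisons of all libraries of PTZ with Con. (5 above 0, 5 below, median -0.03) or of Q808 with PTZ (median 0.14). Ch25h, cholesterol 25-hydroxylase, which makes an oxysterol that suppresses SREBP processing, rose in the striatum-poor libraries of PTZ against Con. by 1.18 (SE 0.33, limma unadjusted p = 0.0121, adjusted p = 0.169, from 0.117 to 0.545 over 12 alternatives), a call lost without Con.-1 or PTZ-1, with differences of 0.88 and 1.16, and with a pseudocount of 1, with 0.58. Between the striatum-rich libraries Ch25h differed by 0.07. Its level was low, 1.24 and 1.21 FPKM in PTZ-1 and PTZ-2 against 0.377 and 0.619 FPKM in Con.-1 and Con.-2. Apoe, the carrier of cholesterol between brain cells, lay between 1481 and 2829 FPKM with overlapping groups and a difference of 0.12 (SE 0.23). Cyp46a1, the neuronal 24-hydroxylase that removes cholesterol from the brain, differed by -0.09 (SE 0.16), and Nr1h2, a liver X receptor, by 0.04 (SE 0.20).

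**Figure D3:**
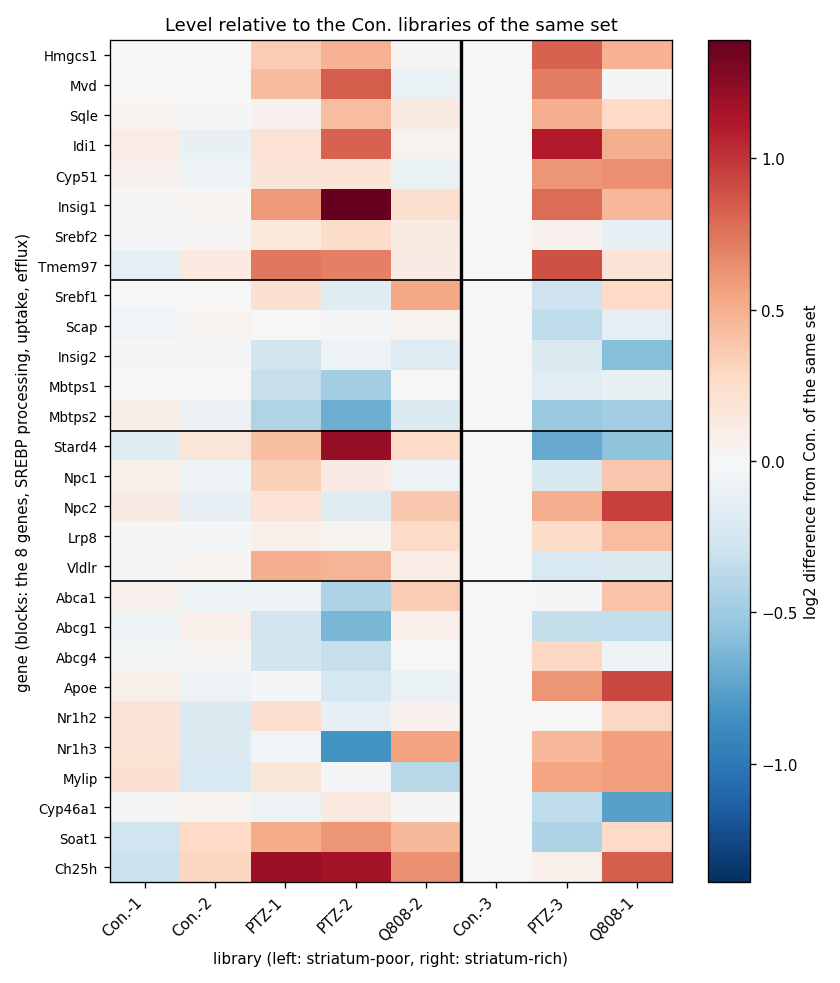
Level of the 8 genes and of 20 genes of SREBP processing, sterol uptake and efflux (vertical axis) in each library (horizontal axis), as the log2 difference from the mean of the Con. libraries of the same striatal content, red higher and blue lower. The 8 genes of the upper block are above 0 in the 3 PTZ libraries, Srebf2 in PTZ-3 by only 0.06, and the blocks below are mixed; Con.-3 is at 0 by construction.

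The level of cell type markers was compared with the 8 genes library by library. Mature oligodendrocyte markers averaged 7.60, 7.65 and 8.14 on the log2 scale in the Con., PTZ and Q808 groups, beside 4.77, 5.33 and 4.91 for the 8 genes. In PTZ against Con. none of the 10 oligodendrocyte markers was called, and their median difference was 0.06. With the oligodendrocyte marker level as a covariate in a fit of all libraries, the mean difference of the 8 genes was 0.56 for PTZ from Con. and -0.37 for Q808 from PTZ, against 0.56 and -0.42 without it. The 7 astrocyte markers averaged 5.97, 6.11 and 6.16 in the 3 groups. In PTZ against Con. none was called and 5 of the 7 were above 0, with a median of 0.22. Within the striatum-poor libraries 5 of the 7 were above 0 in PTZ against Con. (median 0.18). There, 6 of the 7 were below 0 in Q808 against PTZ (median -0.23). In Q808 against Con. 1 astrocyte marker, Sox9, was called lower (-0.67, SE 0.25) and 6 of 7 were above 0. In PTZ against Con. 1 of 6 microglia markers (Tmem119, 0.60) and 1 of 5 endothelial markers (Pecam1, 0.63) were called higher, with list medians of 0.22 and 0.28.

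Pan-neuronal markers were below 0 in Q808 against PTZ in all 5 genes, with a median of -0.43, the same as that of the 8 genes, and none called. Their mean log2 level was 6.83 in Q808-1, the lowest of all libraries, and 7.60 in Q808-2, against 7.28 to 7.79 in PTZ and 7.25 to 7.72 in Con. Within the striatum-poor libraries their median was -0.15, beside -0.44 for the 8 genes. The part of these cell types in the differences of the 8 genes was not tested.

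Choroid plexus markers moved opposite to the 8 genes in the striatum-poor libraries: all 6 were called lower in PTZ against Con. (median -2.58) and all 6 called higher in Q808 against PTZ (median 4.12). Their summed level was 2534 and 2510 FPKM in Con.-1 and Con.-2, 409 and 277 FPKM in PTZ-1 and PTZ-2, and 6437 FPKM in Q808-2. Between the striatum-rich libraries it was 91.8, 492 and 163 FPKM in Con.-3, PTZ-3 and Q808-1, so there PTZ was the highest, as it was for 7 of the 8 genes. With the choroid plexus marker level as a covariate, chosen after seeing the data, the mean difference of the 8 genes was 0.58 for PTZ from Con. and -0.46 for Q808 from PTZ.

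**Figure D4:**
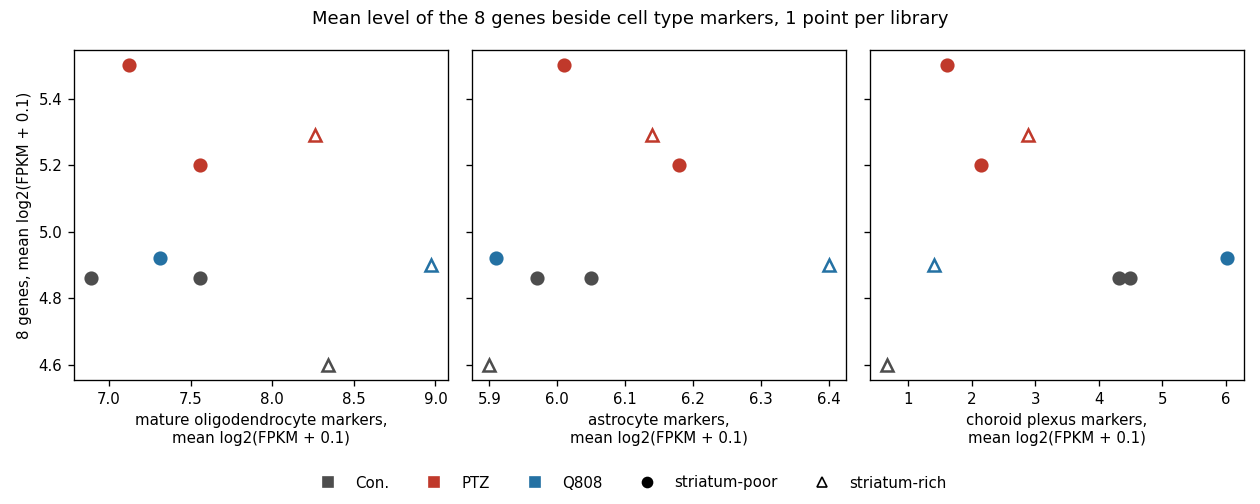
Mean log2(FPKM + 0.1) of the 8 genes (vertical axis) against the mean of oligodendrocyte, astrocyte and choroid plexus markers (horizontal axes), 1 point per library; colours are groups, circles striatum-poor and triangles striatum-rich libraries. The PTZ libraries, at 5.20 to 5.50, lie above the others, at 4.60 to 4.92, in each panel.

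Among 12555 other genes with a mean of at least 1 FPKM, the 10 whose log2 level followed the mean standardized level of the 8 genes most closely over the 8 libraries were Snrpa1 and Tubgcp3 (Pearson r = 0.94), Mrps34 and Plekho1 (r = 0.93), Atf4, Ddx3y, Inafm2 and Hnrnpd (r = 0.92), and Map1lc3a and Fbxw7 (r = 0.91). After centring each set of striatal content, their r lay between 0.91 and 0.96. Atf4, the transcription factor of the integrated stress response, measured 136, 133 and 93.8 FPKM in Con., 155, 218 and 143 FPKM in PTZ, and 130 and 140 FPKM in Q808, with PTZ-2 the highest, as for Mvd, Idi1, Sqle, Insig1 and Srebf2. Fbxw7, a ubiquitin ligase subunit, measured 12.6, 13.9 and 10.9 FPKM in Con., 23.9, 27.7 and 16.3 FPKM in PTZ, and 14 and 14.4 FPKM in Q808. Of the pathway genes described here Msmo1 (r = 0.82, rank 100) and Scd (r = 0.80, rank 123) came nearest. After the centring, Msmo1 had r = 0.93 (rank 16), inside the range of the 10 genes. Fdft1 (rank 223) and Scd (rank 239) then both had r = 0.81. The correlations are a description over 8 points that share libraries and groups.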

How the data were processed

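Total RNA of hippocampus was sequenced with 1 library per rat (3 Con., 3 PTZ and 2 Q808), so p-values rest on the spread between libraries. That spread holds differences between rats and in dissection together. In the striatum-poor libraries it holds none between Q808 rats. The deposited values are FPKM per gene, which the authors computed with Cufflinks after trimming with Trimmomatic. The submitters' processing notes also name HISAT2, Bowtie2, StringTie, SAMtools, HTSeq and DESeq, and versions and genome build are not given in the sources used here. The GO and KEGG annotation in the files was not used. Genes were matched by NCBI GeneID, and 20633 of 22601 took their symbol from RefSeq (GRCr8, for names and promoters).

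The 15593 genes with a mean of at least 0.1 FPKM were tested on log2(FPKM + 0.1), each pair of groups alone, with limma 3.58.1 (empirical Bayes with trend) in R 4.3.3. The striatum-poor libraries were fitted together. Calls needed an unadjusted p below 0.05 with more than 1.5-fold difference, and Benjamini-Hochberg values were adjusted over all genes. By that adjustment at 0.05, limma called 0 genes in PTZ against Con. (589 at an unadjusted p below 0.05), 0 in Q808 against PTZ (341) and 1 in Q808 against Con. (667), and 148 and 94 in the striatum-poor comparisons. The test was checked on simulated data. A fold change on this scale understates that of low genes. The members and lists were chosen with earlier results of these data known. A few genes of the pathway lists are not reported here and were left out of the list counts. The genes named were the 8, each called gene of the pathway lists, the most abundant until 4 per list were named, and the 10 genes most like the 8.

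FPKM hold no counts, so counting error is not known. From genes of low level, 91.9% to 93.7% of values were whole-read ratios of those in Con.-1 (tolerance 0.1%), which gave the relative depth. Deviations from the group mean in same-numbered libraries of PTZ and Con. correlated at 0.212, 0.299 and 0.422, which by the limit of 0.1 pairs them, although the labels state no pairing, the differently numbered Con.-2 and PTZ-1 correlated at 0.322, and Con.-3 and PTZ-3 are both striatum-rich. A fit with the replicate block is an alternative. For Q808-1 and Q808-2 they correlated at -0.295 and 0.322 with PTZ. Other alternatives changed the pseudocount, filter, scaling, trend, covariates and libraries. Python 3.11.15, numpy 2.4.6, pandas 2.3.3 and matplotlib 3.10.9 made tables and figures.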

Additional observations from a re-analysis of the deposited data

How the results depend on the processing

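Over 17 or 18 alternatives the mean log2 difference of the 8 genes stayed between 0.47 and 0.62 in PTZ against Con. (0.56 as reported) and between -0.51 and -0.33 in Q808 against PTZ (-0.42), and none reversed. Leaving out 1 library at a time, called members ranged from 2 to 5 for PTZ against Con. (2 without Con.-3 or PTZ-2) and from 1 to 4 for Q808 against PTZ (1 without Q808-1, 4 without PTZ-1); in striatum-poor libraries from 1 (without Con.-1) to 4 and from 1 (without PTZ-2) to 4, with mean differences of 0.34 (without PTZ-2) to 0.64 and -0.58 to -0.28 (without PTZ-2). There, Q808 against PTZ could not be fitted without Q808-2. It gave -0.61 under median ratio scaling. The calls over all genes moved with the library left out as well. For PTZ against Con., starting from all libraries, they were fewest without PTZ-2 and most without PTZ-3, at 1135. For Q808 against PTZ without 1 PTZ library they ran from 132 (without PTZ-1) to 1569 (without PTZ-3). The numbers of called members are therefore not comparable between these settings. Called pathway genes were few, and their number moved by over 1.5 times in 6 of 18 settings for PTZ against Con., in 12 of 17 when Q808 was set against PTZ and in 8 of 17 when it was set against Con. (9 of 13 and 6 of 12 for the first pair of comparisons in striatum-poor libraries). In PTZ against Con. (0 as reported) there were 0 to 2 without 1 library, 1 under median ratio scaling, and 2 without Con.-3, PTZ-3 and Q808-1. In Q808 against PTZ (1) there were 0 to 4 without 1 library, 0 without the 3 striatum-rich libraries, without trend, with a pseudocount of 1, under median ratio scaling or with the oligodendrocyte covariate, and 2 with the choroid plexus covariate. In Q808 against Con. (1) there were 0 to 3 without 1 library, and 0 without the 3 striatum-rich libraries, with all genes above 0 or with the oligodendrocyte covariate. In the striatum-poor libraries there were 0 (without Con.-1) to 4 in PTZ against Con. (2) without 1 library, 1 with a pseudocount of 1, with all genes above 0, with a filter at 1 FPKM or without trend, and 4 under median ratio scaling. There, Q808 against PTZ (0) had 0 to 5 without 1 library, 1 with a pseudocount of 1 or a filter at 1 FPKM, 2 under quantile normalization and 3 under median ratio scaling. The cause was not tested. Leaving out the striatum-rich libraries and the choroid plexus covariate were chosen after seeing the data.

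With the replicate block, PTZ against Con. had 4 called members, Q808 against PTZ had 2, both as without it, and the pathway genes called were 4 in Q808 against PTZ, 2 in Q808 against Con. and 4 in the striatum-poor libraries of Q808 against PTZ, where no pairing of the libraries was shown. It changed no other count of members or pathway genes by over 1.5 times, but the calls over all genes went from 395 to 616, from 300 to 1894 and from 540 to 1076 in the 3 comparisons of all libraries.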

Other observations

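The 10 genes of fatty acid synthesis, which SREBP1 rather than SREBP2 mainly drives, held none called in PTZ against Con. or in Q808 against PTZ, with median log2 differences of 0.07 and 0.13. Fasn, fatty acid synthase, differed by 0.08 (SE 0.13) in PTZ against Con., Acly, which supplies its acetyl-CoA, by 0.00 (SE 0.12), and Fads1, a desaturase, by 0.04 (SE 0.14). Scd, the stearoyl-CoA desaturase, lay higher in every PTZ library (10.6, 9.93 and 9.24 FPKM) than in every Con. library (8.12, 7.57 and 6.29 FPKM), while its far more abundant paralogue Scd2 overlapped between groups and was highest in Q808-1 at 1693 FPKM, the library with the highest oligodendrocyte markers. Scd was singled out after its values were seen.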
